A study of Rattus norvegicus with 3 samples.

Results

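Pou2f3, Trpm5, Avil and Dclk1 are 4 genes commonly used to mark tuft cells, and here they were followed through every epithelial cell of the rat thymus. They were chosen by name, as 4 of the 34034 genes in the count table, and were read in the 2295 thymic epithelial cells (TEC) among 13226 annotated stromal cells. A cell counted as TEC when the authors' label for it began with that word, which gave 13 labels, 6 of them marked mimetic. The cells came from the thymus of Lewis rats, an inbred line, at 8 weeks of age, with no treatment or genetic change named in the labels. Liberase TH with DNase I was used to free the stroma, and cells lacking CD45, which blood-derived cells carry on their surface, were enriched by magnetic and flow sorting before a droplet single-cell library was made. A library of thymocytes, prepared with collagenase D and DNase I from rats of the same strain and age, was the other cell library read here. Each group had 1 sample, and the labels do not say how many rats were pooled, so no test was possible, no p-value is given, and each comparison describes these libraries. Intervals are 95% intervals that cover counting error only.

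Tuft cells are rare chemosensory epithelial cells of the gut, airway and other linings, and the thymic medulla holds a population of them among its mimetic cells, epithelial cells that take on programs of other tissues. Pou2f3 is the transcription factor that tuft cells need to form. Trpm5 is the cation channel that opens at the end of the taste-type signalling chain, Avil (advillin) is an actin-regulating protein of the villin family, and Dclk1 is a microtubule-associated kinase. Tuft cells signal onward with acetylcholine, leukotrienes and, in the gut, interleukin-25.

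The total over TEC was 28882174 UMIs (molecular tags, 1 for each RNA molecule captured), with 689 to 46780 per cell, a median of 11372 and a median of 3860 genes. Epithelial genes were present in nearly all of these cells, and 32 of 2295 had no UMI of Epcam, Cdh1, Krt8 or Krt18. The stromal and thymocyte libraries shared 38 barcodes, 28 of them annotated in both, and 8 of those were TEC. None of the co-detecting cells described below was among them, since their number was 17 with and without these barcodes. No doublet caller was run.

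Pou2f3 was present in a broad minority of TEC, and its level was highest in the cells labelled mimetic(tuft). Over all TEC it had 373 UMIs in 196 cells, 8.54% of cells (7.43 to 9.76) and 12.9 CPM (counts per 1000000 UMIs of the summed cells, interval 11.6 to 14.3). The 25 cells labelled mimetic(tuft) held 91 of these UMIs in 13 cells, 324 CPM (261 to 398), 15.2 times the next label. That next label was mTEC1, a medullary label of 482 cells, with 137 UMIs in 83 cells, 17.2% of cells and 21.3 CPM (17.9 to 25.2). Levels then ran through mimetic(muscle) at 21.1 CPM, mTEC-prol at 18.3 and mTEC2 at 13.7, whose intervals overlapped from each label to the next. The cortical label cTEC had 6.22 CPM and the label early Pr, the largest with 1018 cells, 4.94 CPM, again with overlapping intervals. The lowest levels were 3.66 CPM in aaTEC2, 2.33 in mimetic(goblet) and 1.59 in aaTEC1, each from 1 or 2 UMIs. So the tuft label held 24.4% of the Pou2f3 UMIs of TEC but 6.63% of the positive cells, while mTEC1 held 42.3% of the positive cells. Annotated cells not counted as TEC, which include 9 cells labelled TEPC with Pou2f3 in 3 of them, had a Pou2f3 UMI in 38 of 10931 cells, 0.348%, at a median depth of 8663 UMIs. Thinned to 5000 UMIs per cell, which left out 72 shallower mTEC1 cells and 1658 shallower annotated cells that were not TEC, the share was 8.01% in mTEC1 and 0.184% outside TEC.

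Trpm5 was detected in fewer cells than Pou2f3 and was concentrated in the tuft label. It had 82 UMIs in 18 TEC, 0.784% of cells (0.465 to 1.24) and 2.84 CPM. Of these, 62 UMIs in 11 cells lay in mimetic(tuft), 221 CPM (169 to 283), 13.8 times the next label and 75.6% of the gene's UMIs in TEC. That next label, mTEC2, had 14 UMIs in 3 of 61 cells, 16.0 CPM, and 11 of the 14 came from 1 cell, without which the level was 3.49 CPM. The remaining UMIs were 2 in 1 mimetic(muscle) cell and 4 in 3 early Pr cells. No UMI was seen in 482 mTEC1 cells, where 3 counts of the total would be a share of 0.622% of cells with a UMI and the exact interval ends at 0.762%. The same held for 448 cTEC cells, with 0.670% and 0.820%. The early Pr share of 0.295% (0.0608 to 0.859) rests on 3 cells, 1 of them with Pou2f3 as well. Its interval included the 0.373% of 1072 endothelial cells, at a lower median depth of 7187 UMIs, and the 0.0823% of all annotated cells outside TEC, but not the point value of 0.0487% in mesenchymal cells (labels capFb and TMC1 to TMC4).

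Avil was sparse in TEC, and outside the tuft label its share of cells lay within the range of other stromal cells. It had 54 UMIs in 44 TEC, 1.92% of cells (1.40 to 2.57) and 1.87 CPM. In mimetic(tuft) there were 14 UMIs in 7 cells, 49.8 CPM (27.2 to 83.6), 4.53 times the next label, and 5 of the 14 were in 1 cell. The next label was aaTEC2, where 6 of 29 cells had exactly 1 UMI each, 10.98 CPM (4.03 to 23.9). Other labels of at least 20 cells lay between 0 and 3.84 CPM. TEC outside the tuft label had an Avil UMI in 1.63% of cells at a median depth of 11360 UMIs, against 1.68% of endothelial cells and 3.49% of mesenchymal cells, which were shallower, and 0.198% of 505 myeloid cells at 9510 UMIs. By level, TEC outside the tuft label had 1.40 CPM (0.999 to 1.90), below the 3.92 (3.50 to 4.39) of mesenchymal cells. The interval overlapped that of endothelial cells, 2.14 CPM (1.29 to 3.34), and lay above the 0.166 (0.00419 to 0.923) of myeloid cells. Outside the tuft label Avil was in 2.19% of TEC with Pou2f3 (0.599 to 5.50) and 1.58% of TEC without it (1.09 to 2.21), with overlapping intervals. The part of free RNA in these single Avil UMIs was not tested.

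Trpm5 and Avil are counted together with Pou2f3, a POU-domain factor, in the single cells described below, so the 250 bases before their annotated starts are shown. They are credited to RefSeq, build GRCr8, and are given 5′ to 3′ on the gene's strand. The octamer ATGCAAAT, the classic element of POU factors, and its leading 7 letters ATGCAAA were searched on both strands. Capitals mark the 7-letter match.
Trpm5, chr1:207707089-207707338, minus strand: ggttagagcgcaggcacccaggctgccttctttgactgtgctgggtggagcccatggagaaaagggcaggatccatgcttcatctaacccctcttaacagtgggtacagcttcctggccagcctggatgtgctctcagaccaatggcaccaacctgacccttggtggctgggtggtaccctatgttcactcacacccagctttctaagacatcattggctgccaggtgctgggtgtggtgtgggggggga
Avil, chr7:64711153-64711402, plus strand: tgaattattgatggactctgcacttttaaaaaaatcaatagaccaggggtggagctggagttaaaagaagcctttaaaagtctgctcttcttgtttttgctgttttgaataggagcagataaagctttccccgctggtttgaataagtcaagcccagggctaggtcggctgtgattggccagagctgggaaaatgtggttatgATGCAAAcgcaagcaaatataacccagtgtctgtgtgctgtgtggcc
The full octamer was in neither sequence. The 7-letter form occurred in Avil, beginning 47 bases before the start, and not in Trpm5. Of all 33469 promoters of this length, 4.08% held the 7-letter form and 1.56% the octamer, and the octamer is counted in both. Among 33 promoters of 32 other tuft genes, listed below, 4 held the 7-letter form (Itpr3, Kctd12, Rgs13 and Sucnr1) and 3 of these the octamer. A match is a run of letters and not a shown binding site.

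Dclk1 was detected in more TEC than the other members, and the tuft label did not have its highest level. It had 2647 UMIs in 645 TEC, 28.1% of cells (26.3 to 30.0) and 91.6 CPM. In mimetic(tuft) it reached 79 UMIs in 17 of 25 cells, 281 CPM (223 to 350), with 4 of the 10 epithelial labels of at least 20 cells above it. These were aaTEC1 at 395 CPM, mimetic(goblet) at 377, mimetic(muscle) at 330 and aaTEC2 at 317, and the 5 intervals overlapped from label to label. A gap between intervals separated these from mTEC-prol at 123 CPM, mTEC2 at 120 and mTEC1 at 115, and another from early Pr at 33.3 CPM and cTEC at 30.9. Labels with few cells also held it, with 64 UMIs in 7 of 9 mimetic(neuroendo) cells. Outside TEC, Dclk1 had a UMI in 61.8% of 10931 cells, and capFb had the highest level of all stromal labels of at least 20 cells, 449.5 CPM (439 to 460). Cells labelled thymocyte within the stromal library had a Dclk1 UMI in 13.9% of 411 cells at a median of 2648 UMIs, while annotated cells of the thymocyte library had one in 0.281% and 0.978 CPM. The shares of 13.0% in early Pr and 13.2% in cTEC lay at or below that of these stromal-library thymocytes, at higher median depths of 10977 and 10535 UMIs. The part of free RNA in these shares was not tested.

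**Figure D1:**
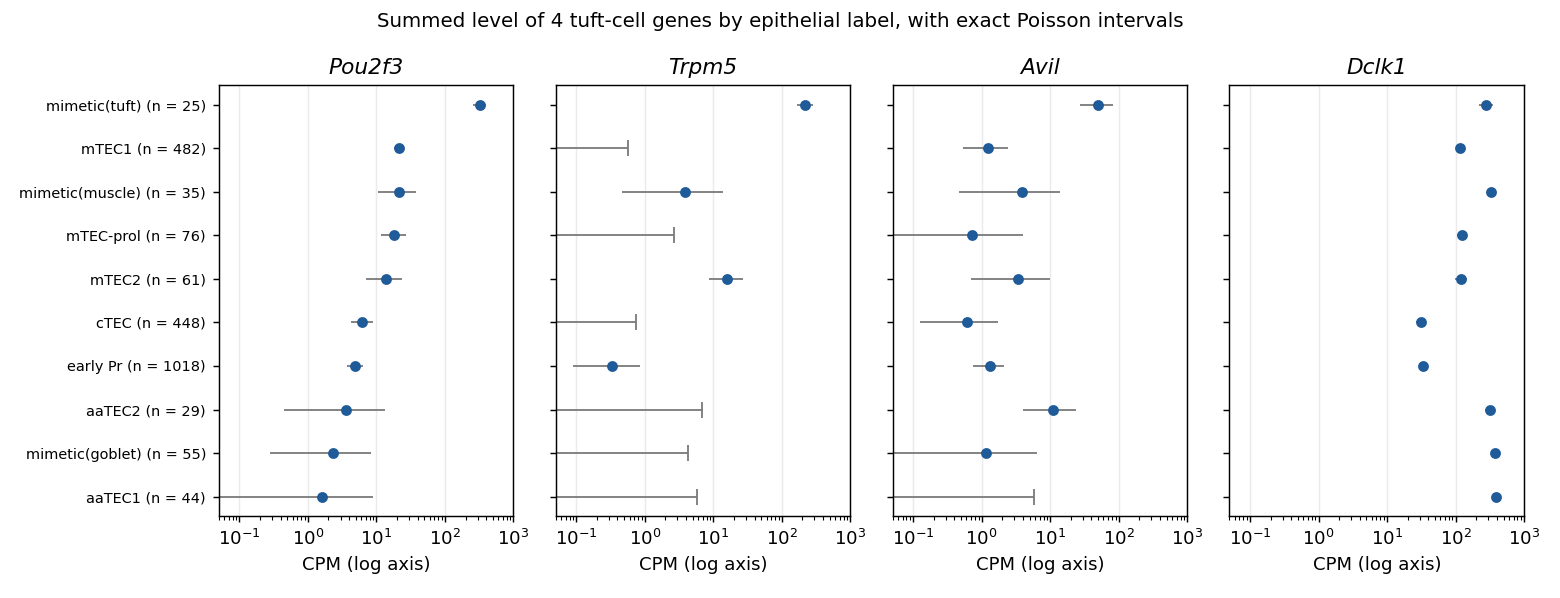
Summed level of each gene by epithelial label of at least 20 cells, in CPM on a log axis, with n cells beside each label. Points are sums over cells, lines are exact Poisson intervals, and a line with a cap and no point marks a label without a UMI. The tuft label stands apart for Pou2f3, Trpm5 and Avil, while 4 labels lie above it for Dclk1.

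**Figure D2:**
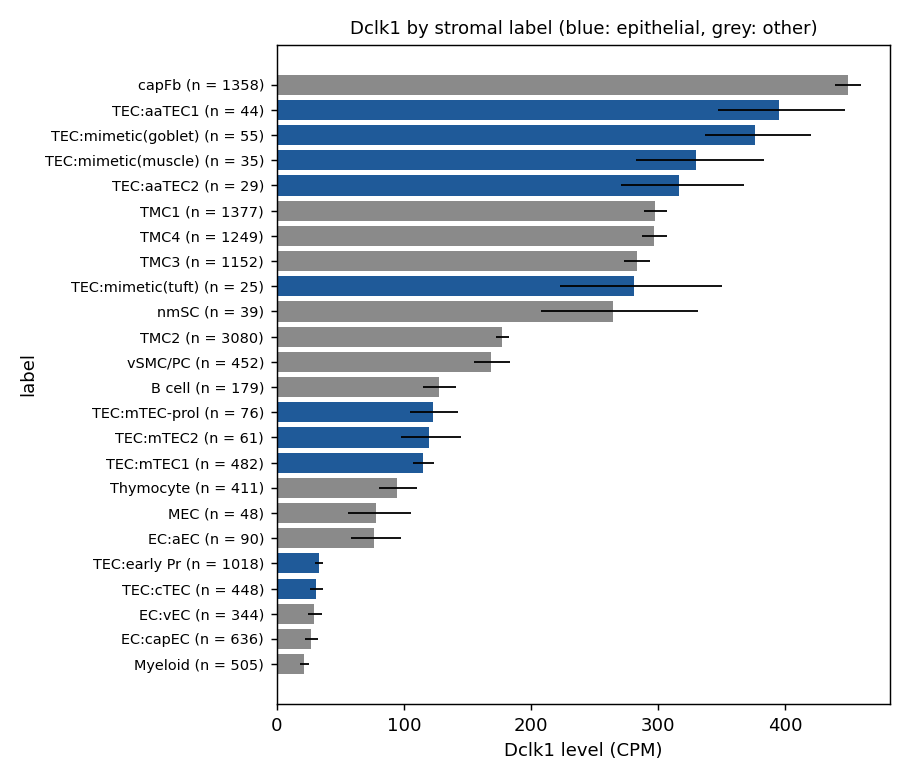
Dclk1 level in CPM by stromal label of at least 20 cells, blue for epithelial and grey for other labels, with exact Poisson intervals. The bar of capFb is the longest at 449.5 CPM, and the tuft label at 281 CPM lies among the mesenchymal labels TMC1, TMC3 and TMC4.

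Pou2f3, Trpm5 and Avil were next read together within cells. At least 2 of the 3 were detected in 17 of 2295 TEC, 0.741% (0.432 to 1.18), and all 3 in 6 cells. Annotated cells outside TEC gave 2 such cells of 10931, and none with all 3. The 17 are called co-detecting cells below. Dclk1 was left out of the count because of its wide presence, and at least 2 of all 4 genes were seen in 129 TEC. Of the 17, 12 carried the tuft label, 2 the label early Pr, and 1 each mTEC1, mTEC2 and mimetic(muscle).

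Trpm5 was the gene that most often came with another. Of 18 cells with Trpm5, 12 also had Pou2f3, 66.7% (41.0 to 86.7), against 8.08% of the 2277 cells without Trpm5, and the median depths were 14149.5 and 11348 UMIs. Avil was seen in 7 of the 18, 38.9%, against 1.62% of cells without Trpm5. Read from the other side, 12 of 196 cells with Pou2f3 had Trpm5, 6.12% (3.20 to 10.5), against 0.286% of cells without Pou2f3. Among cells of at least 5000 UMIs, Pou2f3 was in 9 of 14 Trpm5 cells, 64.3%, and in 8.24% of the other cells. Dclk1 was in 11 of 18 Trpm5 cells, 61.1%, and in 27.8% of the rest, but also in 103 of 196 Pou2f3 cells, 52.6%, and in 25.8% of cells without Pou2f3. Most Pou2f3 cells therefore lacked both Trpm5 and Avil, and 128 of these 180 cells, 71.1%, held exactly 1 Pou2f3 UMI. In the co-detecting cells Pou2f3 had 0 to 16 UMIs with a median of 4, and summed to 438 CPM, against 96.0 CPM in those 180 cells.

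The tuft label was not uniform when read by the authors' clusters. Of its 25 cells, 15 lay in the cluster TEC-a, 6 in TEC-e, 2 in TEC-b and 1 each in TEC-c and TEC-d. The 15 cells in TEC-a summed to 74 UMIs of Pou2f3, 62 of Trpm5, 13 of Avil and 34 of Dclk1, and 11 of them were co-detecting. A further cell of that group had 10 Trpm5 UMIs without Pou2f3 or Avil, and the remaining 3 had none of the 3 genes, 1 of them with 6 UMIs of Foxi1. All 6 cells in TEC-e had 0 UMIs of Pou2f3, Trpm5 and Avil at 11764 to 19180 UMIs per cell, and 29 UMIs of Dclk1. These 6 cells held 3 to 26 UMIs of Foxi1, a transcription factor of ionocytes, and 92 of the 134 UMIs they had of a list of 5 ionocyte genes were Foxi1, with Atp6v1b1 and Atp6v0d2 at 0. All 5 genes of that list were at 0 in all 17 co-detecting cells. Dclk1 was in 5 of the 6, at 296 CPM against 281 over the whole label. Cluster TEC-e as a whole, 133 cells that include these 6, had ionocyte-list UMIs in every cell. The list's level was 867 CPM there, and 1369 in the 6. The 133 cells held 4 UMIs of Pou2f3, 0 of Trpm5 and 2 of Avil, with Dclk1 in 115 cells at 407 CPM. Since Pou2f3, Trpm5, Avil and the ionocyte genes went against the label in the 6 cells, those 6 are named here by cluster and Foxi1. The labels are the authors' own, and whether these genes took part in setting them is not given in the sources used here.

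Among co-detecting cells without the tuft label, those in cluster TEC-a had the fullest set. The cell labelled mTEC2 had 3 UMIs of Pou2f3, 11 of Trpm5 and 2 of Avil, and the cell labelled mimetic(muscle) had 4, 2 and 2. The mTEC1 cell, in cluster TEC-d, had 7 of Pou2f3 and 1 of Avil with no Trpm5. The 2 early Pr cells had 1 UMI of Pou2f3 each, with 1 of Avil or 2 of Trpm5. In total 13 of the 17 co-detecting cells lay in TEC-a, a cluster of 188 cells.

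**Figure D3:**
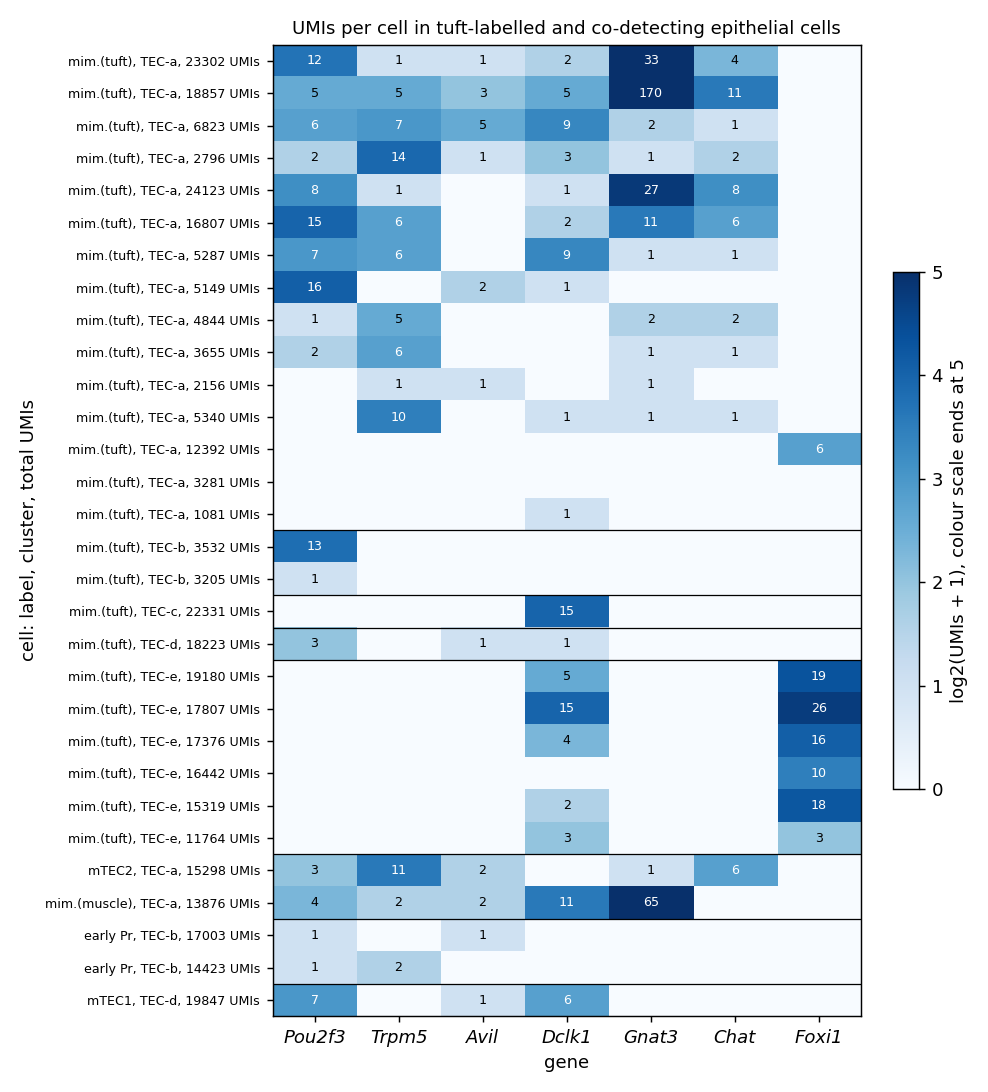
UMIs per cell for the 25 tuft-labelled and the 5 other co-detecting cells, 1 row per cell with its label, cluster and total UMIs, and 1 column per gene. Numbers are UMIs, empty squares are 0, and colour is log2(UMIs + 1). Trpm5, Gnat3 and Chat occur together in TEC-a, and Foxi1 fills the 6 tuft-labelled cells of TEC-e.

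Other genes known from tuft cells were then counted in the co-detecting cells, which their choice had not used. The comparison was with 1604 other TEC of the same 5 labels, whose median depth of 11181.5 UMIs was below the 14423 of the co-detecting cells. A list of 44 genes was used, chosen with earlier results of these data known, and 42 of them were in the table. Lrmp, an older name of Irag2, and Siglecf were not. Co-detecting cells held a UMI of 5 to 29 of the 42 genes, median 15, and the other cells held 0 to 19, median 3. Of 32 list genes with at least 5 UMIs in the co-detecting cells, 27 were at least 4-fold higher there, and the list's median fold was 37.3. Across all 7600 genes measured by the same rule, 603 were at least 4-fold higher, which is 7.93%, and the median fold was 1.21. The 5 genes that did not reach 4-fold were Itpr3, Sox9, Runx1, Ptgs1 and Tspan6.

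Taste-type signalling genes were the group with the highest folds, and 6 of 7 with enough UMIs passed 4-fold. Gnat3, the G-protein subunit gustducin, had 315 UMIs in 12 of 17 cells, 1483 CPM, against 26 UMIs in 10 of 1604 cells, 1.30 CPM, a ratio of 1143. The highest cell held 170 of those UMIs, and without it the ratio was 577. Its partner subunits Gnb3 and Gng13 were 833-fold and 239-fold higher, in 4 and 9 of the 17 cells, and Gnb3 was 414-fold higher without its highest cell. Plcb2, the phospholipase of the chain, had 35 UMIs in 8 cells and was 144-fold higher. Rgs13, a regulator of G-protein signalling, was detected in 12 cells and was 639-fold higher, and Ovol3, a zinc-finger gene, in 7 cells and 625-fold. Itpr3, the calcium release channel, was in 25.7% of the other TEC as well and was 2.88-fold higher, or 1.81-fold without its highest cell. Tas1r3, a sweet and umami receptor subunit, and Sucnr1, the succinate receptor, were at 0 in the co-detecting cells.

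Of the transcription factors and coactivators, 5 of 7 with enough UMIs passed 4-fold. Pou2af2, a coactivator that works with Pou2f3, had 55 UMIs in 10 of 17 cells, 259 CPM, and was in 1.18% of the other TEC at 0.998 CPM, a ratio of 259, or 164 without its highest cell. Its relative Pou2af3 was 5.77-fold higher, but 11 of its 17 UMIs were in 1 cell, without which the ratio was 2.29. Hmx2, a homeobox factor, had 5 UMIs in 4 cells and was 157-fold higher, computed against 3 UMIs because the other TEC held 2, and 102-fold without its highest cell. Gfi1b, a zinc-finger repressor, had 6 UMIs in 3 cells and was 80.8-fold higher, but 4 of the 6 were in 1 cell, without which the ratio was 30.3. Spib, an ETS factor, was 8.11-fold higher and in 9 cells. Runx1 at 1.79-fold and Sox9 at 0.917-fold were close to the other TEC, where each was in over 63% of cells. Hmx3 was at 0.

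The lipid mediator and transmitter genes passed 4-fold in 5 of 6 cases. Chat, the enzyme that makes acetylcholine, had 42 UMIs in 10 of 17 cells, 198 CPM, against 5 UMIs in 3 of 1604 cells, a ratio of 792. Ltc4s, Alox5ap and Alox5, enzymes and an accessory protein of leukotriene synthesis, were 393-fold, 22.9-fold and 14.5-fold higher, in 9, 10 and 12 cells. Il17rb, a subunit of the interleukin-25 receptor, was 10.6-fold higher in 6 cells, and 6.22-fold without its highest cell. Ptgs1, a cyclooxygenase, was 3.56-fold higher. Il25 itself had 1 UMI in the 17 cells and 5 in the 1604, so no level could be read for it.

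Of the other genes, 11 of 12 passed 4-fold. Irag2, a membrane protein of the endoplasmic reticulum, was in 14 of 17 cells, the most of any list gene, with 221 UMIs, 1040 CPM and a ratio of 401. Sh2d6, an SH2-domain protein, had 103 UMIs in 9 cells and was 571-fold higher, with 17 UMIs in 2 of the other cells. Espn (espin) and Vil1 (villin), which shape actin bundles, were 29.8-fold and 40.4-fold higher, in 12 and 3 cells, and 19.7-fold and 20.6-fold without the highest cell. Fyb1, an adaptor, and Ptpn6, a phosphatase, are also expressed by blood cells, and were 34.2-fold and 13.7-fold higher. Nrgn, the neural gene neurogranin, was 262-fold higher, but 20 of its 25 UMIs lay in 1 cell and the ratio without it was 57.5. L1cam was 12.8-fold, Strip2 9.90-fold and Kctd12 8.19-fold higher, and without its highest cell Strip2 was 3.15-fold and Kctd12 4.25-fold higher. Tspan6 was 3.18-fold higher, or 1.54-fold without its highest cell, and Cd300lf, Bmx and Trim38 were at 0.

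Lists of markers of other cells were read in the co-detecting cells and in the 1604 other TEC of the same labels. Of 10 thymocyte genes, 3 had any UMI, with 5 UMIs in all and 0 to 2 per cell, and Cd3d, Cd3e, Cd3g, Cd8a, Cd8b, Ptcra and Lat were at 0. These genes were in 17.6% of the co-detecting and 18.5% of the other cells. Of 4 myeloid genes, Lyz2 had 1 UMI in each of 6 cells, 35.3% of cells against 7.79% with any of the list in the other TEC, and Tyrobp, Csf1r and Cd68 were at 0. Of 5 goblet genes, Muc5b had 8 UMIs in 4 co-detecting cells, 23.5%, and Spdef, Agr2, Tff3 and Muc2 were at 0. In the other TEC Muc5b was at 0, and 2.00% of cells had a UMI of any of the remaining 4 genes. Microfold genes, a list that holds Spib as well, had 26 UMIs, 122 CPM against 56.0, and were in 70.6% against 29.4% of cells. Of the mast cell list, Kit had 19 UMIs, 89.4 CPM against 9.23 for the list in the other TEC, and Cpa3 and Ms4a2 were at 0. Of 5 mesenchymal genes all had UMIs, 142 in total and 1 to 106 per cell with a median of 2, the same median as in the other TEC, and 106 of them were in 1 cell. Muscle genes had 61 UMIs, 53 in 1 cell, 287 CPM against 18.4. Of 5 medullary TEC genes, 4 had UMIs, 677 in total, in 88.2% of co-detecting and 98.2% of the other cells. The fifth, Aire, the autoimmune regulator, was at 0, and was in 2.68% of the other TEC. Of 4 cortical TEC genes, 3 had UMIs, 25 in total, in 41.2% against 88.8% of cells. Psmb11, the cortical proteasome subunit, was at 0. The part of these markers in the results above was not tested.

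**Figure D4:**
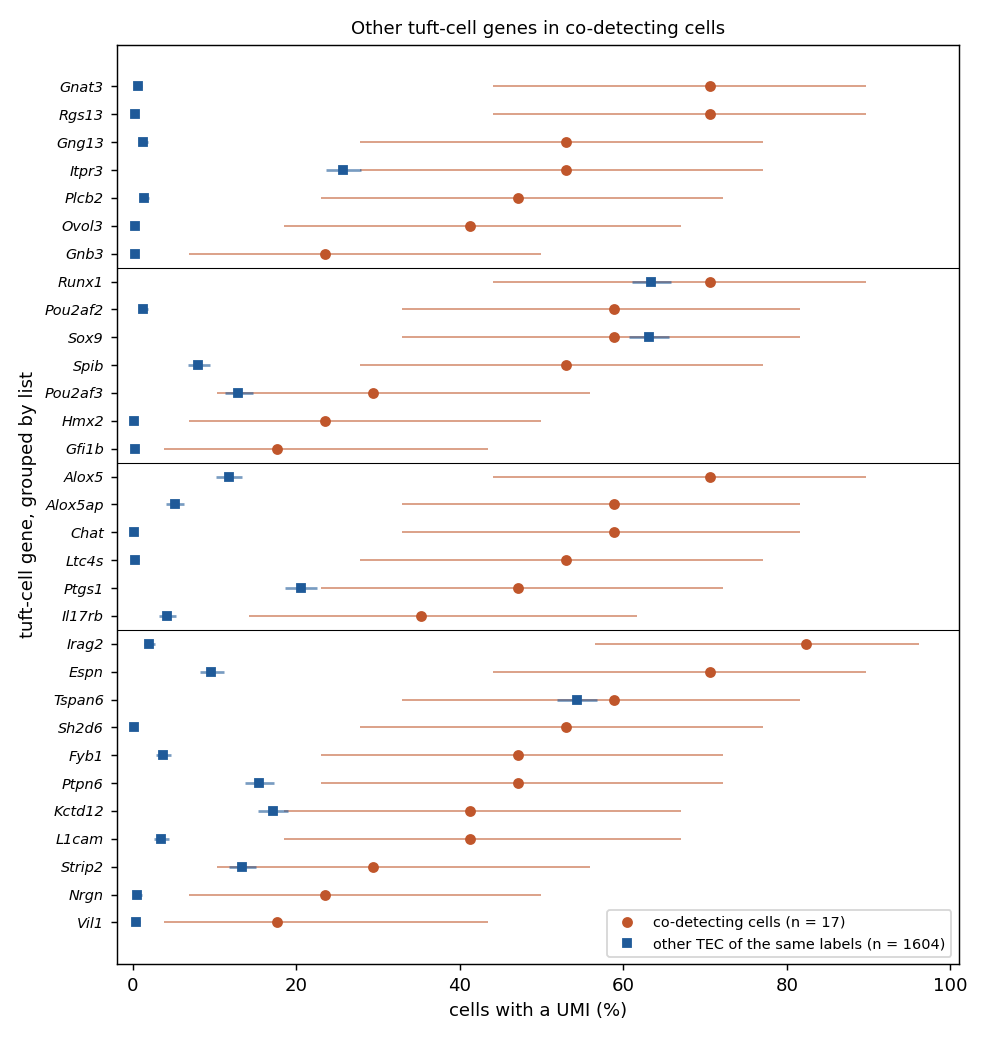
Share of cells with a UMI, in percent, for list genes with at least 5 UMIs in the co-detecting cells, 1 of which is not shown, with exact binomial intervals. Circles are the 17 co-detecting cells and squares the 1604 other TEC of the same labels. Irag2 has the highest share in the co-detecting cells, while Runx1, Sox9 and Tspan6 have like shares in both groups.

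The genes most like each member in the cells where they were detected differed from member to member. Likeness was the Jaccard index, the cells with both genes over the cells with either, among 15469 genes with a UMI in at least 5 of the 2295 TEC. It is a description, since all pairs share 1 library and depth raises it. For Trpm5 the nearest genes were Chat at 0.550, Itprid1 at 0.522, and Gnat3, Rgs13 and Sh2d6 at 0.500. For Avil they were Tas2r103, a bitter taste receptor, at 0.128, Trpm5 at 0.127, Gnat3 at 0.115, Sh2d7 at 0.111 and Itprid1 at 0.109. For Pou2f3 they were Wipf3 at 0.203, then Tesc, Skint1 and Fezf2, the last at 0.194. Trpm5 ranked 9451 for Pou2f3, where 18 against 196 positive cells bounds the index.

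As 180 of the 196 Pou2f3 cells were not co-detecting, the neighbours of Pou2f3 largely describe those cells. Fezf2 and Wipf3 were picked for their overlap with Pou2f3 in these same TEC. Their higher shares with Pou2f3 than without it follow from that choice. Median depths also differed, with 14389 UMIs in the 180 cells and 11178 in TEC without Pou2f3. Fezf2, a factor of medullary epithelium, had a UMI in 68 of the 180 Pou2f3 cells without Trpm5 and Avil, 37.8%, in 1 of 17 co-detecting cells and in 7.62% of cells without Pou2f3. Wipf3 was in 75 of the 180 cells, 41.7%, in 4 co-detecting cells and in 9.24% of cells without Pou2f3, with 76.5, 65.9 and 15.1 CPM in these groups. By label, Fezf2 reached 68.4% of mTEC-prol and 25.7% of mTEC1 cells, and Wipf3 63.2% and 29.5%. In mTEC2 they reached 62.3% and 37.7%, above mTEC1, although Pou2f3 was in 8.20% of mTEC2 and 17.2% of mTEC1 cells. Aire was in 9 of the 180, 5.00%. Chat, Gnat3, Rgs13 and Sh2d6 each had a UMI in 1 of the 180, and Ltc4s and Itprid1 in none. The 180 lack Trpm5 by choice, and all of these but Ltc4s were the genes nearest to Trpm5. Low counts thus follow in part from the choice. Gnat3 and Rgs13 were each in 0.556% of the 180, and in 0.527% and 0.263% of the 2278 TEC that were not co-detecting. Other genes of the tuft list were more frequent in the 180. Spib was in 48 of the 180, 26.7%, against 6.67% of cells without Pou2f3. Gng13 was in 8, 4.44%, against 1.01% of the 2278 TEC that were not co-detecting, which include the 180. At least 8 list genes were seen in 25 of the 180 and 72 of the 2278, with medians of 4 and 3 genes and median depths of 14389 and 11345.5 UMIs.

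Dclk1 was nearest to Pcdh7 at 0.497, Gja1 at 0.491, Adam19, Slfn2 and Ccdc88a. Across 18 stromal labels of at least 50 cells its level, as log2(CPM + 1), was most like that of Yipf5, with Pearson's r of 0.900, then Klhl22 at 0.868, Tmem43 at 0.864, Copg1 at 0.861 and Npas3 at 0.856. These are descriptions over 18 labels of 1 library and 13997 genes ranked. In the thymocyte library the 4 genes had 0.434 CPM for Pou2f3, 0.202 for Trpm5, 0.822 for Avil and 0.978 for Dclk1 over 8546 annotated cells.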

How the data were processed

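Both deposited cell tables hold raw UMI counts of each gene in each barcode. Per the file headers, the counting tool was Cell Ranger 8.0.0. The build mRatBN7.2 and Seurat 5.3.0 are named in the submitters' processing notes without a role. The percent of mitochondrial UMIs per cell was deposited by the authors and lay between 0.186 and 4.74 in the co-detecting cells. Labels are the authors' projected label, or the initial cluster where none was given. Samples were grouped by GEO's labels.

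UMIs were summed per label and divided by the total UMIs of its cells, per 1000000 (CPM), with exact Poisson intervals, and shares of cells have exact Clopper-Pearson intervals, all at 95%. Labels under 20 cells are given as counts. A ratio against fewer than 3 UMIs was computed against 3. Thinning gives the expected share of cells with a UMI at a fixed depth, and shallower cells were left out. The promoter sequences come from RefSeq's GRCr8 table, which matched 3 of 4 members, and gave no sequence for Pou2f3.

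The text names the 4 members, list genes with at least 5 UMIs in co-detecting cells, and for each member the 5 genes with the highest Jaccard index. For Dclk1 it also names the 5 genes with the highest correlation over labels, among genes with at least 100 UMIs, at a pseudocount of 1 CPM. Foxi1, Aire, the levels of Fezf2 and Wipf3 by label and the taste receptors were chosen after their values were seen. The members and lists were chosen with earlier results of these data known. Alternatives were other filters on cells, depth, detection threshold, averaging, denominator, comparison cells and label source. Added after seeing the data were the sets without a gene's highest cell, without shared barcodes, with the 9 cells labelled TEPC, and with tuft-labelled co-detecting cells alone. The spatial section was not used here, and 2 genes that these rules name are not reported here. The counting steps were tested on simulated data. The scripts used pandas 2.3.3, SciPy 1.17.1 and NumPy 2.4.6 under Python 3.11.15, and figures were drawn with matplotlib 3.10.9.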

Additional observations from a re-analysis of the deposited data

Results flagged for a closer look

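Signal of all 4 genes was present in 2934 stromal barcodes that carried no annotation and entered no comparison, whose median depth was 1219.5 UMIs. Pou2f3 had 108 UMIs in 66 of these barcodes, 12.5 CPM, and Trpm5 had 6 UMIs in 1 barcode, 0.693 CPM. Avil had 25 UMIs in 20 barcodes, 2.89 CPM, and Dclk1 had 1163 UMIs in 388, 134 CPM. Annotated cells of the same library outside TEC had 0.457 CPM of Pou2f3, 0.107 of Trpm5, 3.46 of Avil and 236 of Dclk1. Against these, Pou2f3 was higher and Dclk1 lower in the unannotated barcodes. For Avil the interval of the unannotated barcodes, 1.87 to 4.26 CPM, included 3.46. Trpm5 was higher through 1 barcode alone, without which it was 0. The thymocyte library, where each of the 4 genes was lower than in the unannotated barcodes, had 0.434, 0.202, 0.822 and 0.978 CPM. At least 2 of Pou2f3, Trpm5 and Avil were seen in 3 of the unannotated barcodes. Of these, 2 held 17 and 18 of the 42 tuft-list genes, at 2843 and 2673 UMIs. The mitochondrial ribosomal RNA genes mt-Rnr1 and mt-Rnr2 made up 11.5% and 7.63% of their UMIs. This share is another measure than the mitochondrial percent deposited by the authors, and the 2 cannot be compared.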

How the results depend on the processing

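Of 486 recomputed values, 441 counted as the same and 45 moved. Levels, shares and cell counts were the same when within the interval of the value reported, and the count of list genes when within 1.5-fold. The 128 gene folds were the same when on the same side of 4-fold, whatever their size, and 3 moved. A change of direction could be scored only for gene folds of at least 4, and 0 were scored. Of the 78 values behind the main results, 59 stayed and 19 moved. Thinned to 1000 and to 5000 UMIs per cell, the share of TEC with a UMI was 1.21% and 4.01% for Pou2f3, 0.306% and 0.410% for Trpm5, 0.231% and 0.743% for Avil, and 6.17% and 19.0% for Dclk1. Depth thus limits the shares, as does the detection threshold, since asking for at least 2 UMIs gave 2.83% for Pou2f3, 0.261% for Avil and 20.7% for Dclk1. Averaging the cells' CPM gave 15.1 CPM for Pou2f3, 6.17 for Trpm5 and 74.7 for Dclk1, and in the tuft label 518 for Pou2f3, 515 for Trpm5 and 88.0 for Avil. Totals without mitochondrial, ribosomal and haemoglobin genes gave 16.0 CPM for Pou2f3 and 113 for Dclk1. Co-detecting cells numbered 9 with at least 2 UMIs of each gene, 6 with all 3 genes and 129 with any 2 of the 4. The count of list genes at least 4-fold higher was 25 to 28 under 4 alternatives. Ptgs1 reached 4.01-fold against all TEC. No paired analysis was possible because no group had more than 1 sample. With 17 cells of 1 library, the variation between animals was not measured, and intervals cover counting error only.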

Other observations

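Taste receptor genes were looked at after Tas2r103 had appeared among the genes nearest to Avil, so their choice followed the data. Of 38 Tas1r and Tas2r genes in the table, 13 had a UMI in the 17 co-detecting cells, with 124 UMIs in 9 cells and 584 CPM. The other 2278 TEC had 113 UMIs of 8 of these genes, 3.94 CPM, and 87 of the 113 were Tas2r137. Annotated cells outside TEC had 289 UMIs, 2.81 CPM, and 241 of them were Tas2r137. Tas2r103, a bitter receptor, had 46 UMIs in 7 co-detecting cells and 2 UMIs in the other TEC. Tas2r123 had 27 UMIs in 1 co-detecting cell and 1 UMI in the other TEC. Tas2r117 had 12 UMIs in 2 co-detecting cells and 10 UMIs in 2 of the other TEC. Tas2r102 had 10 UMIs in 2 co-detecting cells and 0 in the other TEC. Likeness of sequence among the Tas2r genes was not measured here, and how UMIs split among related copies was not tested.

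Sh2d7 and Itprid1, which were on no list, were among the genes nearest to Avil, and Itprid1 also to Trpm5. Avil and Trpm5 help to define the co-detecting cells, so high counts there follow in part from how these genes were picked. Sh2d7 had 83 UMIs in 10 of 17 co-detecting cells and 12 UMIs in 6 of the other 2278 TEC. Itprid1 had 45 UMIs in 11 co-detecting cells and 23 UMIs in 6 other TEC. Kit, a receptor also known from mast cells, had 19 UMIs in 7 co-detecting cells and 17 UMIs in 4 of the 6 tuft-labelled cells of cluster TEC-e. The mast cell list, which holds Kit, had a UMI in 114 of the 133 cells of that cluster.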
